A study of Mus musculus with 8 samples.

Results

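The SLC25 family of mitochondrial solute carriers was followed through the differentiation of 2 mouse adipocyte lines. Members were all rows of the count tables whose symbol is Slc25a followed by a number. There were 47 such symbols of 35949 in the BAC table and the same 47 of 21828 in the 3T3-L1 table, and 46 of them are described and counted here. The uncoupling proteins and the Mtch genes belong to the same protein family under other symbols and were treated as context. RNA-seq counts came from 8 libraries in 4 groups of 2, with BAC sampled at day 0 and day 4 and 3T3-L1 at days 0 and 6. BAC are brown preadipocytes taken from interscapular fat of newborn mice and immortalised with the large T antigen of SV40, and 3T3-L1 are embryonic fibroblasts that form white-type adipocytes. Both lines are labelled WT. Both day 0 groups were sampled 2 days past confluence, when induction began. The later groups had then received IBMX, dexamethasone, indomethacin, insulin and T3 up to day 2, and insulin with T3 thereafter. Each line is a single immortalised culture line, and the labels do not say whether the 2 libraries of a group are from separate cultures. The p-values thus reflect no more than the spread among these libraries, and that spread may be technical.

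Carriers of this family sit in the inner mitochondrial membrane, where they exchange nucleotides, phosphate, carboxylates, amino acids, cofactors and metals between matrix and cytosol. In brown fat they supply the fuel, cofactors and nucleotides used in oxidation beside the proton leak through Ucp1, and in fat cells that store lipid the citrate carrier brings out the carbon used for fatty acid synthesis. Expression was read as counts, given for the carriers as CPM, the count of a gene scaled to a common library total with TMM factors. CPM does not correct for gene length, so levels were compared between genes per kilobase of exon. The length is that of all annotated exons joined, so such ratios are approximate.

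Libraries held 9045849 to 10160636 counts, and replicates differed by more than counting noise (chi-square per gene 1.87 to 5.17). The labelled identities were checked with 6 markers each, in CPM scaled by library total without TMM factors. Summed adipocyte markers went from 194 to 238 CPM at day 0 to 13750 to 14920 CPM at day 4 in BAC, and from 42.5 to 58.4 CPM to 15980 to 17080 CPM at day 6 in 3T3-L1. Brown markers went from 0.985 to 1.28 CPM to 351 to 451 CPM in BAC, and Ucp1, Cidea and Dio2 had no count at day 0. In 3T3-L1 they went from 22.4 to 22.7 CPM to 47.3 to 47.6 CPM, and Ucp1, Cidea, Dio2 and Cox8b had no count at day 0. Preadipocyte markers went from 1262 to 1295 CPM to 71.3 to 71.4 CPM in BAC and from 4809 to 4952 CPM to 531 to 581 CPM in 3T3-L1. Endothelial markers stood at 18.9 to 20.6 CPM in BAC at day 0 and at 0.108 to 0.774 CPM at day 4, and at no more than 3.96 CPM in 3T3-L1, and summed muscle, immune and epithelial markers stayed at or under 7.04 CPM in every library. The share of counts from genes of mitochondrial DNA was 3.01% to 3.05% at day 0 and 8.49% to 9.91% at day 4 in BAC, and 2.58% to 2.67% at day 0 and 4.83% to 4.88% at day 6 in 3T3-L1. These levels move with the days compared below, and their part in the carriers' changes was not tested. In bulk RNA, more cells of a type and more RNA per cell cannot be told apart.

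Promoter sequence is shown for 4 carriers, each picked together with a motif that its window holds, so the matches shown are there by choice. Slc25a34 is the carrier with the largest rise in both lines, and Slc25a1 exports citrate. Slc25a25 rose in 3T3-L1 with little change in BAC, and Slc25a36 changed by small amounts in opposite directions. Slc25a4 and Slc25a37, which also changed in opposite directions, are not shown. Each stretch is 100 bases of the RefSeq promoter window (GRCm38.p6, 250 bases before to 50 after a start site), 5′ to 3′ on the gene's strand, with a motif match in capitals. All 4 genes lie on the minus strand, and the stretches are chr4:141623901-141624000, chr16:17928370-17928469, chr2:32424163-32424262 and chr9:97111149-97111248.
Slc25a34: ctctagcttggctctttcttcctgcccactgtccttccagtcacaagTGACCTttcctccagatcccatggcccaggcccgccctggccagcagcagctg
Slc25a1: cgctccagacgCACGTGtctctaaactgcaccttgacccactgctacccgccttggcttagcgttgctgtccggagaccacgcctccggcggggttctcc
Slc25a25: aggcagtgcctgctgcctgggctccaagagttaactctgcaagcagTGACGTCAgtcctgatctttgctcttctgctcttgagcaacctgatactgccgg
Slc25a36: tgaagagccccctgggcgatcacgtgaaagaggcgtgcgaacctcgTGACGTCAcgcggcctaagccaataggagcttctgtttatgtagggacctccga

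In Slc25a34 the capitals mark a nuclear receptor core site (AGGTCA, here on the opposite strand) that begins 119 bases before the start site. In Slc25a1 they mark an E-box (CACGTG) 239 bases before it, in Slc25a25 a cyclic AMP response element (TGACGTCA) 150 bases before one of its start sites, and in Slc25a36 the same element 161 bases before it. The Slc25a36 stretch also holds an E-box in lower case. Motifs were searched by exact letters on both strands in 46 windows of 36 members and in all 32851 windows of the table. Of the tested carriers, Slc25a26, Slc25a27, Slc25a32, Slc25a35, Slc25a37, Slc25a44, Slc25a46 and Slc25a51 had no window, so the search does not cover them. The E-box was in 8 member windows (17.4%, against 7.15% of all windows), those of Slc25a1, Slc25a13, Slc25a14, Slc25a15, Slc25a31, Slc25a33 and Slc25a36. Slc25a14 has overlapping windows that hold the same E-box, which is counted in each of them. The cyclic AMP element was in 2 (4.35% against 1.79%), and the core site in 4 (8.70% against 16.3%), those of Slc25a34, Slc25a39, Slc25a45 and Slc25a47. An EBF motif (TCCCNNGGG) was in 2 (4.35% against 6.56%), those of Slc25a22 and Slc25a25, a YY1 motif (AAGATGGCG) was in 1 window, that of Slc25a3, against 1.403% of all, and a sterol element (TCACNCCAC) in 1, that of Slc25a18, against 1.24%. No member window held the ERR element TCAAGGTCA (0.423% of all), which contains AGGTCA, or the NRF1 motif GCGCATGCG (1.75% of all). A match is a description of these letters and not of binding.

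The first 2 comparisons ask how the carriers change as each line becomes adipocytes. In BAC, 28 of the 38 described carriers that passed the low-count filter were higher at day 4 and 6 were lower, with a median log2 change of 1.19. Of all 14028 genes tested, 39.1% were higher and 39.4% lower, with a median of 0.0078. In 3T3-L1, 24 of 38 were higher at day 6 and 8 were lower, with a median log2 change of 0.78. There, 39.8% of 11902 genes were higher and 39.6% lower, with a median of 0.00073. These shares of all genes stand beside every count of a group or list in 1 line given below. Calls are from edgeR's quasi-likelihood test with Benjamini-Hochberg adjustment at 0.05 over all genes tested, and log2 changes carry their SE, with n = 2 libraries per group throughout. The 46 carriers took 0.215% and 0.208% of library counts in BAC at day 0 and 0.5796% and 0.543% at day 4. In 3T3-L1 they took 0.255% and 0.249% at day 0 and 0.498% and 0.485% at day 6.

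In both lines 23 carriers were higher and 4 lower. Of the 11500 genes tested in both, 27.1% were higher in both lines, 28.0% lower in both and 4.77% higher in BAC and lower in 3T3-L1. The 4 that fell in both were Slc25a12, Slc25a13, Slc25a24 and Slc25a30. Slc25a4, Slc25a36 and Slc25a37 were higher in BAC and lower in 3T3-L1. Slc25a29 and Slc25a32 were higher, and Slc25a14 and Slc25a45 lower, in BAC without passing the test in 3T3-L1. Slc25a25 was higher and Slc25a27 lower in 3T3-L1 without passing it in BAC. Slc25a47 and Slc25a53 passed in neither line. In BAC the days did not overlap for Slc25a27, Slc25a47 and Slc25a53 either. With 2 libraries per group, a lack of overlap does not by itself set apart the carriers called.

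**Figure D1:**
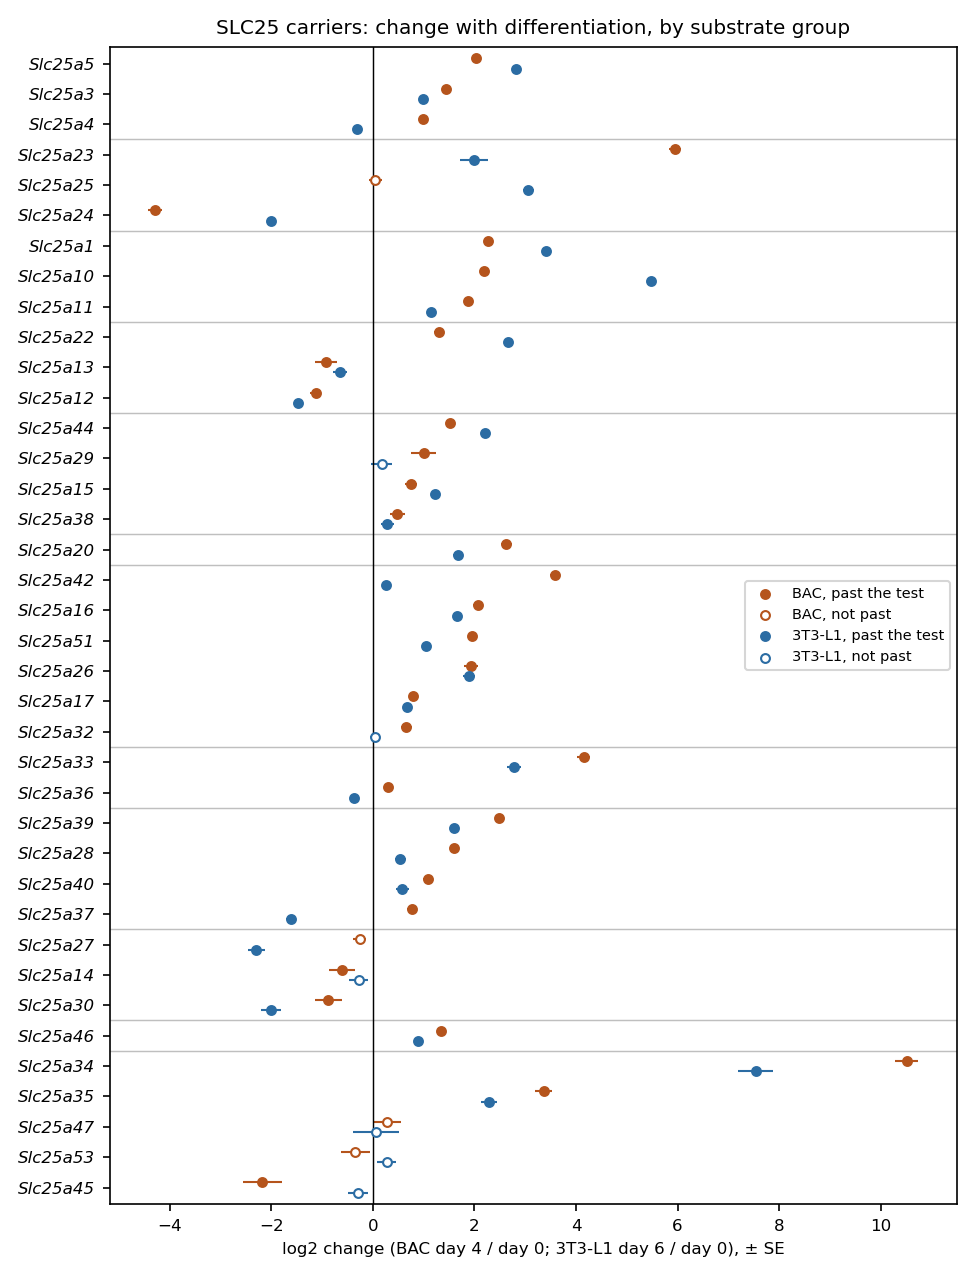
Log2 change ± SE of the 38 described and tested carriers in BAC (orange, day 4 against day 0) and 3T3-L1 (blue, day 6 against day 0), grouped by substrate with grey lines between groups. Filled points passed the test, open points did not, and Slc25a34 lies farthest to the right in both lines.

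The adenine nucleotide translocases swap matrix ATP for cytosolic ADP, and the phosphate carrier Slc25a3 (chr10:91116574-91124059, GRCm38) brings in the phosphate for ATP synthesis. Slc25a3 stood at 390.5 and 394 CPM before induction and 1124 and 999.6 CPM at day 4 in BAC, and at 294 and 271 CPM before induction and 564 and 549.8 CPM at day 6 in 3T3-L1. The days did not overlap in either line, and the rise was 1.44 ± 0.083 on the log2 scale (adjusted p = 5.3e-10) in BAC and 0.98 ± 0.053 on the log2 scale (adjusted p = 7.21e-13) in 3T3-L1. Slc25a5, the translocase form of dividing and many adult cells (chrX:36795651-36798807), stood at 139 and 144 CPM before induction and 593 and 565 CPM at day 4 in BAC. For 3T3-L1 the levels were 167 and 158 CPM before induction and 1177 and 1122 CPM at day 6. It rose 4.09-fold in BAC (2.03 ± 0.078, adjusted p = 4.58e-12) and 7.08-fold in 3T3-L1 (2.82 ± 0.056, adjusted p = 6.17e-20).

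Slc25a4, the translocase form best known from heart and skeletal muscle (chr8:46206797-46211284), went opposite ways. It stood at 237 and 197 CPM before induction and 447 and 418 CPM at day 4 in BAC, where both day 4 libraries were above both day 0 libraries. The 3T3-L1 libraries held 647 and 633 CPM before induction and 532 and 494 CPM at day 6, where both day 6 libraries were the lower ones. It rose by 0.99 ± 0.091 on the log2 scale (adjusted p = 1.15e-07) in BAC and changed by −0.32 ± 0.052 on the log2 scale (adjusted p = 1.24e-05) in 3T3-L1. Both calls and directions held under every alternative run. Per kilobase of exon the ratio of Slc25a4 to Slc25a5 was 1.19 and 0.9605 at day 0 and 0.527 and 0.518 at day 4 in BAC. It was 2.71 and 2.81 at day 0 and 0.316 and 0.308 at day 6 in 3T3-L1, so Slc25a5 was the higher form in all differentiated libraries. The genes are close copies, and reads that fit both could have been divided between them by the counting. Slc25a31, the testis form, had at most 1 count in any library.

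The ATP-Mg and phosphate carriers, which are gated by calcium and adjust the adenine nucleotide content of the matrix, did not move together. In BAC, Slc25a23 (chr17:57043711-57059863) stood at 3.15 and 2.99 CPM before induction and 191 and 187 CPM at day 4. This was a rise of 61.4-fold (5.94 ± 0.12, adjusted p = 8.69e-15). Its levels in 3T3-L1 were 1.14 and 2.37 CPM before induction and 7.76 and 6.28 CPM at day 6, a rise of 3.98-fold (1.99 ± 0.28, adjusted p = 1.78e-06). On the log2 scale that rise moved from 1.56 without day 0 replicate 2 to 2.61 without day 0 replicate 3. All differentiated libraries were above those at day 0, but the day 6 level in 3T3-L1 was only a few CPM above its start.

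Slc25a24 (chr3:109123149-109168457) fell in both lines. It stood at 72.00 and 68.7 CPM before induction and 3.47 and 3.75 CPM at day 4 in BAC, 19.4-fold lower at day 4 (−4.28 ± 0.14, adjusted p = 5.98e-13). For 3T3-L1 the levels were 145 and 144 CPM before induction and 34.9 and 36.9 CPM at day 6, 4.03-fold lower at day 6 (−2.01 ± 0.066, adjusted p = 1.98e-16). The pair therefore traded places in BAC, where the ratio of Slc25a23 to Slc25a24 per kilobase was 0.0284 and 0.0282 at day 0 and 35.7 and 32.4 at day 4. In 3T3-L1 the ratio was 0.00509 and 0.0107 at day 0 and 0.144 and 0.1104 at day 6, so Slc25a24 stayed the higher of the pair.

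The third measured carrier of this kind, Slc25a25 (chr2:32414487-32451445), was the reverse. It stood at 16.9 and 15.4 CPM before induction and 16.7 and 16.8 CPM at day 4 in BAC, where the days overlapped, and did not pass the test (0.053 ± 0.13 on the log2 scale (adjusted p = 0.718)). The 3T3-L1 libraries held 6.72 and 7.68 CPM before induction and 57.9 and 62.5 CPM at day 6, 8.35-fold higher at day 6 (3.06 ± 0.11, adjusted p = 6.79e-16). Its exons share 379 bases (4.82% of its exon length) with Naif1 on the opposite strand, and strandedness was not given in the sources used here. The fourth member, Slc25a41, had at most 1 count in any library.

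**Figure D2:**
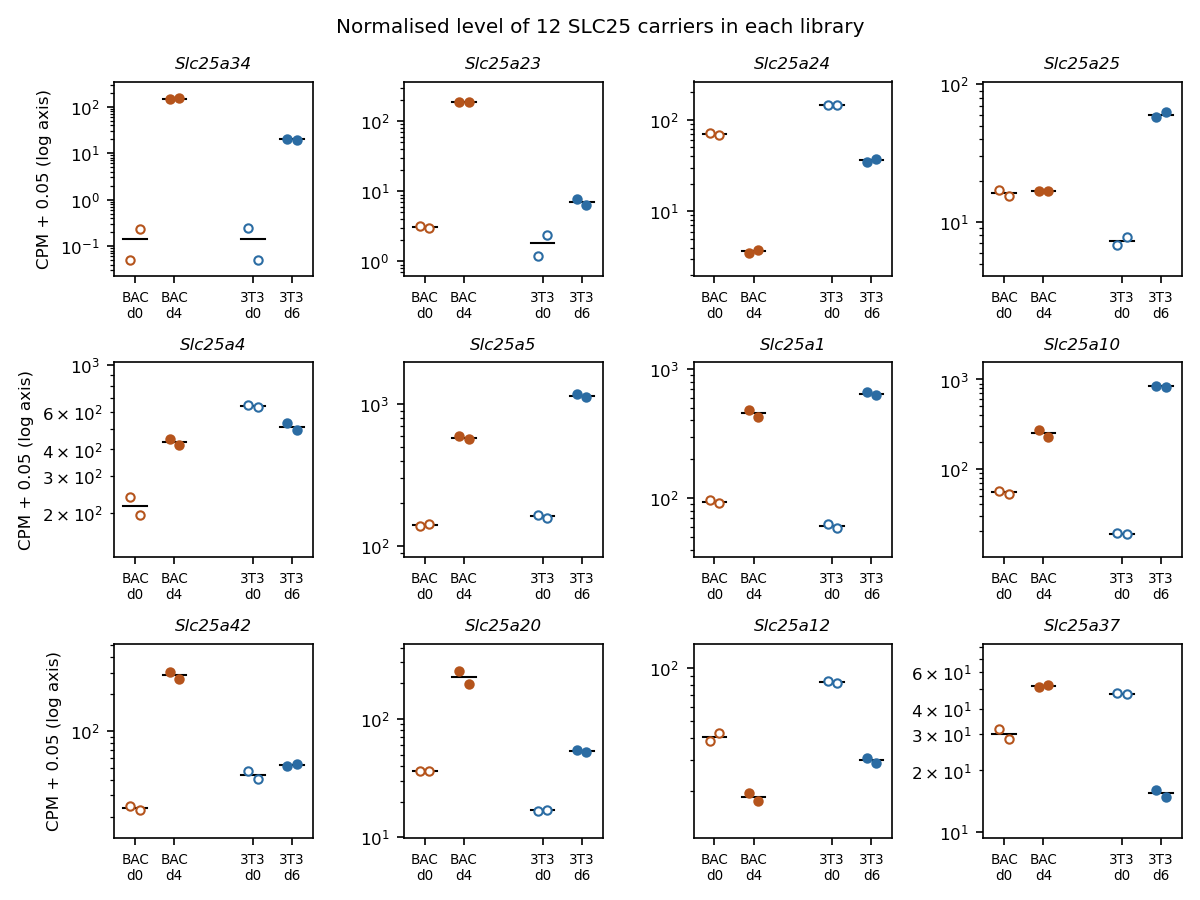
Normalised level of 12 carriers in each of the 8 libraries, as CPM plus 0.05 on a log axis (orange BAC, blue 3T3-L1, open points day 0, filled points day 4 or day 6, bars the group mean of 2 libraries). Slc25a24 and Slc25a12 fall in both lines, and Slc25a4 and Slc25a37 rise in BAC and fall in 3T3-L1.

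All 3 measured carriers of di- and tricarboxylates rose in both lines. Slc25a1, the citrate carrier (chr16:17925223-17928219), stood at 96.8 and 91.4 CPM before induction and 483 and 429 CPM at day 4 in BAC. Levels in 3T3-L1 were 63.1 and 58.98 CPM before induction and 665 and 629.9 CPM at day 6. The groups did not overlap, and the rise was 4.85-fold in BAC (2.28 ± 0.086, adjusted p = 3.85e-12) and 10.6-fold in 3T3-L1 (3.41 ± 0.06, adjusted p = 1.01e-20). Slc25a10, the dicarboxylate carrier, which exchanges malate or succinate for phosphate (chr11:120491840-120499187), stood at 56.2 and 52.9 CPM before induction and 274 and 227 CPM at day 4 in BAC and at 19.03 and 18.6 CPM before induction and 853 and 822 CPM at day 6 in 3T3-L1. It was lower in 3T3-L1 than in BAC at day 0 and higher after differentiation, though levels were not tested between the lines. The rise was 4.59-fold in BAC (2.20 ± 0.10, adjusted p = 2.45e-11) and 44.5-fold in 3T3-L1 (5.48 ± 0.069, adjusted p = 1.42e-22).

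Slc25a11, the oxoglutarate and malate exchanger of the malate-aspartate shuttle (chr11:70644196-70647479), stood at 79.8 and 81.4 CPM before induction and 306 and 288 CPM at day 4 in BAC and at 64.8 and 65.1 CPM before induction and 143 and 144 CPM at day 6 in 3T3-L1. It rose by 1.88 ± 0.077 on the log2 scale (adjusted p = 1.08e-11) in BAC and by 1.14 ± 0.058 on the log2 scale (adjusted p = 2.73e-13) in 3T3-L1. Per kilobase, Slc25a10 stood at 0.1800 and 0.175 times Slc25a11 at day 0 and 3.66 and 3.500 times at day 6 in 3T3-L1, whereas in BAC the ratio was 0.432 and 0.399 at day 0 and 0.551 and 0.483 at day 4. Exons of Slc25a11 share 8.92% of their length with Rnf167 and those of Slc25a10 share 6.60% with Gm11788, both on the opposite strand. Slc25a21, the oxodicarboxylate carrier, had at most 4 counts in any library and was not tested.

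The enzymes that make citrate and turn it into fat rose in both lines. All 5 listed genes of citrate export and fat synthesis were higher, with a median log2 change of 2.15 in BAC and 2.96 in 3T3-L1. Of all genes tested, 39.1% were higher in BAC and 39.8% in 3T3-L1. In BAC the largest changes were those of citrate synthase Cs (3.76 ± 0.089) and fatty acid synthase Fasn (2.31 ± 0.094). In 3T3-L1 they were those of Fasn (4.54 ± 0.061) and malic enzyme Me1 (3.30 ± 0.059). Acly changed least in BAC, by 0.37 ± 0.076, against 2.59 ± 0.053 in 3T3-L1. The difference in change was below 0 for Fasn, Acly, Me1 and Acaca, from −2.26 ± 0.10 for Fasn to −0.83 ± 0.10 for Acaca, and above 0 for Cs (0.83 ± 0.092).

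The aspartate and glutamate exchangers, the other membrane step of the malate-aspartate shuttle, fell in both lines. Slc25a12 (chr2:71271063-71367749) stood at 38.4 and 42.7 CPM before induction and 19.6 and 17.5 CPM at day 4 in BAC and at 84.9 and 82.03 CPM before induction and 30.8 and 28.97 CPM at day 6 in 3T3-L1. Every later library was below every day 0 library of its line, with a change of −1.13 ± 0.11 on the log2 scale (adjusted p = 3.52e-07) in BAC and −1.48 ± 0.074 on the log2 scale (adjusted p = 2.05e-13) in 3T3-L1. Slc25a13, also called citrin (chr6:6041218-6217173), stood at 7.75 and 10.2 CPM before induction and 5.14 and 4.35 CPM at day 4 in BAC and at 17.8 and 15.6 CPM before induction and 11.1 and 10.2 CPM at day 6 in 3T3-L1. Its change was −0.92 ± 0.22 on the log2 scale (adjusted p = 0.00132) in BAC and −0.65 ± 0.14 on the log2 scale (adjusted p = 0.000224) in 3T3-L1, again without overlap. Slc25a22, a carrier of glutamate with protons, rose, by 1.296 ± 0.10 in BAC and 2.66 ± 0.078 in 3T3-L1. The second glutamate carrier, Slc25a18, had 1 to 11 counts per library and was not tested.

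Of the 6 enzymes of the malate-aspartate and glycerol phosphate shuttles, 5 were higher in BAC and none lower. In 3T3-L1, 4 were higher and Got2, the mitochondrial aspartate aminotransferase, was lower (−0.73 ± 0.058). The shares of all genes tested were 39.1% higher and 39.4% lower in BAC, and 39.8% and 39.6% in 3T3-L1. Got2 did not pass the test in BAC (0.12 ± 0.079). Gpd1, the cytosolic glycerol phosphate dehydrogenase, had the largest change of the list in both lines, 9.61 ± 0.19 in BAC and 10.49 ± 0.15 in 3T3-L1. The malate dehydrogenase Mdh1 changed by 2.98 ± 0.083 in BAC and 3.16 ± 0.057 in 3T3-L1. The mitochondrial glycerol phosphate dehydrogenase Gpd2 changed by 3.81 ± 0.10 in BAC and 0.53 ± 0.066 in 3T3-L1.

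Among the carriers of other amino acids none fell. Slc25a44, the carrier of branched-chain amino acids known for its part in brown fat heat production, rose by 1.52 ± 0.077 in BAC and by 2.22 ± 0.072 in 3T3-L1. Slc25a15, the ornithine carrier of the urea cycle, rose by 0.75 ± 0.12 and 1.23 ± 0.079. Slc25a29, a carrier of basic amino acids, rose by 1.003 ± 0.24 on the log2 scale (adjusted p = 0.00159) in BAC, which was not past the threshold with DESeq2 (adjusted p = 0.0592), and did not pass in 3T3-L1 (0.18 ± 0.20). Slc25a38, the glycine carrier of heme synthesis, passed the test in both lines, by 0.48 ± 0.15 on the log2 scale (adjusted p = 0.0088) in BAC and 0.29 ± 0.13 on the log2 scale (adjusted p = 0.0423) in 3T3-L1. Neither call was firm. Both were lost with DESeq2 (adjusted p = 0.113 in BAC and 0.273 in 3T3-L1). Without the low-count filter the BAC call ended (adjusted p = 0.083), and the 3T3-L1 call ended with upper-quartile scaling (adjusted p = 0.365) and with both lines in 1 fit (adjusted p = 0.0676). Scaling by library size alone left 0.22 (adjusted p = 0.194) in BAC and −0.0025 (adjusted p = 0.987) in 3T3-L1, and leaving out any 1 library ended the 3T3-L1 call, with adjusted p from 0.0553 to 0.177. In BAC the call ended without day 0 replicate 1 (adjusted p = 0.166) and without day 4 replicate 2 (adjusted p = 0.0845). Slc25a2, a second ornithine carrier, had 1 to 11 counts in BAC and 0 to 4 in 3T3-L1 and was not tested.

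Slc25a20, the carnitine and acylcarnitine exchanger that brings fatty acids into the matrix (chr9:108662088-108684641), stood at 36.05 and 36.5 CPM before induction and 253 and 197 CPM at day 4 in BAC. For 3T3-L1 the levels were 16.8 and 16.8 CPM before induction and 54.2 and 52.9 CPM at day 6. Both later groups lay above day 0, with a rise of 6.19-fold in BAC (2.63 ± 0.11, adjusted p = 1.53e-11) and 3.19-fold in 3T3-L1 (1.67 ± 0.088, adjusted p = 5e-13). Of the 5 enzymes of the carnitine shuttle, 3 were higher and 2 lower in BAC, and 2 of the 4 tested were higher and 2 lower in 3T3-L1. Among all genes tested, 39.1% were higher and 39.4% lower in BAC, and 39.8% and 39.6% in 3T3-L1. Cpt2, which hands the fatty acid back to coenzyme A in the matrix, rose by 2.64 ± 0.081 and 3.001 ± 0.069, and Crat by 3.24 ± 0.084 and 2.70 ± 0.054. The entry enzymes, which attach the fatty acid to carnitine, differed in direction. Cpt1a changed by −3.21 ± 0.11 in BAC and −0.57 ± 0.068 in 3T3-L1, and the related Cpt1c by −3.56 ± 0.13 and −2.82 ± 0.10. Cpt1b, the muscle form, had 12 and 8 counts at day 0 and 46 and 18 at day 4 in BAC and rose there by 2.07 ± 0.45 on the log2 scale (adjusted p = 0.000669). It had 3 and 6 counts at day 0 and 4 and 2 at day 6 in 3T3-L1, where it was not tested.

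All 6 described cofactor carriers rose in BAC, and 5 did in 3T3-L1. Slc25a42, a carrier of coenzyme A (chr8:70184340-70212305), stood at 24.7 and 22.8 CPM before induction and 303 and 267 CPM at day 4 in BAC and rose by 3.59 ± 0.10 on the log2 scale (adjusted p = 1.12e-13). In 3T3-L1 it stood at 47.6 and 40.4 CPM before induction and 52.1 and 53.4 CPM at day 6, a change of only 1.199-fold (0.26 ± 0.082, adjusted p = 0.0066). The 3T3-L1 call was lost with DESeq2 (adjusted p = 0.0812), with scaling by library size alone, where the change was −0.029, with upper-quartile scaling, where it was 0.10 (adjusted p = 0.253), without the low-count filter (adjusted p = 0.0713), and without day 0 replicate 3 (adjusted p = 0.15), day 6 replicate 1 (adjusted p = 0.12) or day 6 replicate 2 (adjusted p = 0.166).

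The other cofactor carriers rose in both lines except Slc25a32, which passed in BAC only. Slc25a16, also linked to coenzyme A, rose by 2.07 ± 0.11 in BAC and 1.65 ± 0.078 in 3T3-L1. Slc25a51, the NAD carrier, rose by 1.95 ± 0.083 and 1.04 ± 0.056, and Slc25a26, the S-adenosylmethionine carrier, by 1.93 ± 0.14 and 1.90 ± 0.11. Exons of Slc25a26 share 144 bases with Lrig1 on the opposite strand, which had 2887 counts over all BAC libraries and 18809 over all 3T3-L1 libraries. Slc25a17, which works in the peroxisome and not in mitochondria, rose by 0.79 ± 0.077 and 0.68 ± 0.073. Slc25a32, the folate carrier, rose by 0.66 ± 0.11 on the log2 scale (adjusted p = 4.36e-05) in BAC and did not pass in 3T3-L1 (0.046 ± 0.10), where its sign turned with scaling by upper quartile (−0.11) and by library size alone (−0.24, adjusted p = 0.0246). Of the 4 mitochondrial folate enzymes, 2 were higher and 2 lower in BAC, and 1 was higher and 1 lower in 3T3-L1. Shares of all genes tested were 39.1% higher and 39.4% lower in BAC, and 39.8% and 39.6% in 3T3-L1, so this list has no lean of its own. Mthfd2 rose in both lines (1.69 ± 0.085 in BAC and 1.16 ± 0.064 in 3T3-L1), and Shmt2 rose in BAC (1.35 ± 0.083) and fell in 3T3-L1 (−0.501 ± 0.072). The falls in BAC were those of Mthfd1l (−1.12 ± 0.13) and Mthfd2l (−0.38 ± 0.14), which did not pass in 3T3-L1 (−0.12 ± 0.10 and 0.036 ± 0.12).

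The pyrimidine nucleotide carriers supply the precursors for mitochondrial DNA and RNA. Slc25a33 (chr4:149744036-149774277) stood at 5.05 and 4.34 CPM before induction and 87.8 and 79.4 CPM at day 4 in BAC, 17.8-fold higher (4.15 ± 0.13, adjusted p = 4.18e-13). It stood at 4.07 and 4.36 CPM before induction and 29.9 and 28.04 CPM at day 6 in 3T3-L1, with a rise of 2.78 ± 0.14. Of its exon length, 14.9% is shared with Gm13068 on the opposite strand. Slc25a36 (chr9:97074961-97111157) stood at 95.5 and 97.3 CPM before induction and 119 and 119.6 CPM at day 4 in BAC and at 182 and 183 CPM before induction and 135 and 147 CPM at day 6 in 3T3-L1. The change was small and opposite, 0.31 ± 0.075 on the log2 scale (adjusted p = 0.00172) in BAC and −0.37 ± 0.055 on the log2 scale (adjusted p = 3.74e-06) in 3T3-L1. The BAC call ended when libraries were scaled by size alone (0.043 (adjusted p = 0.603)). Per kilobase, Slc25a33 moved from 0.269 and 0.227 to 3.75 and 3.38 times Slc25a36 in BAC and from 0.113 and 0.121 to 1.13 and 0.9702 times in 3T3-L1. Which of the pair is higher rests on the exon lengths used, 1887 bases for Slc25a33 and 9594 for Slc25a36. By CPM, Slc25a36 stayed the higher in every library.

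Of the iron and glutathione carriers, all 4 rose in BAC, and 3 rose and 1 fell in 3T3-L1. The one that fell was Slc25a37, mitoferrin-1, the iron importer best known from red cell precursors (chr14:69241848-69285112). It stood at 31.9 and 28.3 CPM before induction and 51.1 and 51.9 CPM at day 4 in BAC, without overlap, and rose by 0.77 ± 0.10 on the log2 scale (adjusted p = 4.03e-06). In 3T3-L1 it stood at 47.5 and 47.04 CPM before induction and 15.98 and 14.9 CPM at day 6, 3.06-fold lower at day 6 (−1.61 ± 0.095, adjusted p = 3.04e-12). Slc25a28, mitoferrin-2, the form of other cells, rose by 1.60 ± 0.085 in BAC and 0.55 ± 0.11 in 3T3-L1. The ratio of Slc25a28 to Slc25a37 per kilobase was 1.71 and 1.86 at day 0 and 3.19 and 3.11 at day 4 in BAC, and 0.512 and 0.563 at day 0 and 2.36 and 2.45 at day 6 in 3T3-L1.

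Slc25a39, which carries glutathione into mitochondria, rose by 2.48 ± 0.083 in BAC and 1.60 ± 0.059 in 3T3-L1, and its close relative Slc25a40 by 1.08 ± 0.10 and 0.58 ± 0.12. Per kilobase, Slc25a39 was at 15.8 and 14.5 times Slc25a40 at day 0 and at 42.7 and 37.2 times at day 4 in BAC. In 3T3-L1 it was at 12.2 and 12.2 times at day 0 and at 27.9 and 22.1 times at day 6. Of the heme synthesis enzymes, which use the imported iron, 7 of 8 tested were higher and 1 lower in BAC, and 7 of 9 higher and 1 lower in 3T3-L1. For all genes tested the shares were 39.1% higher and 39.4% lower in BAC, and 39.8% and 39.6% in 3T3-L1. Alas1, the first enzyme of the pathway, rose by 3.31 ± 0.087 and 3.09 ± 0.064.

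The carriers related to the uncoupling proteins were the only substrate group with no member that rose in either line. Slc25a30 (chr14:75760117-75787037) stood at 6.58 and 6.88 CPM before induction and 2.51 and 4.84 CPM at day 4 in BAC and at 12.1 and 13.9 CPM before induction and 3.71 and 2.79 CPM at day 6 in 3T3-L1. Both later groups were below day 0, with a change of −0.87 ± 0.27 on the log2 scale (adjusted p = 0.00765) in BAC and −1.998 ± 0.20 on the log2 scale (adjusted p = 1.06e-08) in 3T3-L1. The BAC call was lost with DESeq2 (adjusted p = 0.0634), without the low-count filter (adjusted p = 0.0902), without day 0 replicate 2 (adjusted p = 0.0518) and without day 4 replicate 1, where the change was −0.48 (adjusted p = 0.0931).

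Slc25a27 (chr17:43641891-43667214) stood at 21.3 and 21.7 CPM before induction and 19.1 and 16.8 CPM at day 4 in BAC and did not pass the test (−0.26 ± 0.12 on the log2 scale (adjusted p = 0.069)), although upper-quartile scaling called it lower (−0.30 (adjusted p = 0.0364)), as did library size alone (−0.52 (adjusted p = 0.00132)), both lines in 1 fit (−0.29 (adjusted p = 0.0327)) and leaving out day 4 replicate 1 (−0.36 (adjusted p = 0.043)). In 3T3-L1 it stood at 20.6 and 20.9 CPM before induction and 3.71 and 4.77 CPM at day 6, 4.88-fold lower (−2.29 ± 0.16, adjusted p = 5.19e-11). Slc25a14 (chrX:48623413-48662294) stood at 6.31 and 5.61 CPM before induction and 4.902 and 2.901 CPM at day 4 in BAC, with a change of −0.61 ± 0.26 on the log2 scale (adjusted p = 0.0419). That call was lost with DESeq2 (adjusted p = 0.204), without the low-count filter (adjusted p = 0.151) and without day 0 replicate 1 (−0.55 (adjusted p = 0.172)), day 0 replicate 2 (−0.71 (adjusted p = 0.0779)) or day 4 replicate 2 (−0.27 (adjusted p = 0.321)). In 3T3-L1 Slc25a14 stood at 8.99 and 7.302 CPM before induction and 7.41 and 6.05 CPM at day 6, where the days overlapped (−0.27 ± 0.18, adjusted p = 0.178). Upper-quartile scaling (−0.43 (adjusted p = 0.034)) and library size alone (−0.56 (adjusted p = 0.00663)) called it lower there too. Of the uncoupling proteins themselves, Ucp2 rose by 3.56 ± 0.12 in BAC and 1.98 ± 0.056 in 3T3-L1. Ucp1, the proton leak of brown fat, had 0 and 0 counts at day 0 and 427 and 173 at day 4 in BAC and passed the test (adjusted p = 6.64e-08), and had 0 and 0 counts at day 0 and 2 and 0 at day 6 in 3T3-L1, where it was not tested. Ucp3 passed in 3T3-L1, with 1 and 0 counts at day 0 and 74 and 78 at day 6 (adjusted p = 2.3e-11), and had 0 and 0 counts at day 0 and 6 and 7 at day 4 in BAC, where it was not tested.

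Among carriers with no settled substrate, Slc25a34 (chr4:141618824-141623821) changed more than any other member in both lines. Its counts were 0 and 2 at day 0 and 1211 and 1287 at day 4 in BAC, or 145 and 156 CPM at day 4. In 3T3-L1 they were 2 and 0 at day 0 and 176 and 168 at day 6, or 20.4 and 19.5 CPM at day 6. The transcript was close to undetected before differentiation in both lines. The ratio of the summed counts, scaled by library size and TMM factors, was 1663 in BAC. Its 95% interval, from 459.9 to 13740.0, covers counting error only. The ratio was 211 in 3T3-L1, with an interval from 57.9 to 1747. Both rises passed the test (adjusted p = 2.02e-14 in BAC and 6.43e-14 in 3T3-L1). With 2 counts at day 0, the fitted log2 change depended on which day 0 library was kept. It was 10.51 with both, 9.57 without replicate 1 and 13.43 without replicate 2 in BAC, and 7.53 with both, 6.62 without replicate 3 and 10.53 without replicate 2 in 3T3-L1.

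Its neighbour in the family, Slc25a35 (chr11:68968131-68974365), stood at 3.51 and 3.17 CPM before induction and 30.97 and 38.1 CPM at day 4 in BAC and rose 10.3-fold (3.36 ± 0.17, adjusted p = 1.17e-10). In 3T3-L1 it rose by 2.29 ± 0.16. Exons of Slc25a35 share 1151 bases, 31.3% of their length, with Rangrf on the opposite strand, so its level is uncertain. Slc25a45 changed by −2.17 ± 0.38 on the log2 scale (adjusted p = 0.000112) in BAC at low CPM and did not pass in 3T3-L1 (−0.29 ± 0.19 on the log2 scale (adjusted p = 0.175)), where upper-quartile scaling (−0.45 (adjusted p = 0.0349)) and library size alone (−0.58 (adjusted p = 0.00736)) called it lower. Slc25a47, known from liver, was not past the test in BAC (0.28 ± 0.28) or 3T3-L1 (0.061 ± 0.45), nor was Slc25a53 (−0.34 ± 0.28 in BAC and 0.27 ± 0.19 in 3T3-L1). Without 3T3-L1 day 6 replicate 2, Slc25a53 was called higher in 3T3-L1 (0.51 (adjusted p = 0.0479)). Slc25a46, which sits in the outer membrane and takes part in mitochondrial shape, rose by 1.34 ± 0.084 and 0.88 ± 0.066. Slc25a43 was seen with 7 counts in 1 BAC library at day 0 and none elsewhere, Slc25a54 had 0 to 3 counts per library, and Slc25a48 had none in any library, where up to 3 counts per library could have gone unseen.

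The make-up of the SLC25 transcripts, as shares of the summed CPM per kilobase of exon of the 46 carriers, differed by line and day. In BAC at day 0, Slc25a4 held 15.00% to 17.4%, Slc25a5 14.6% to 15.6% and Slc25a3 12.2% to 12.7%, and the order of the first 2 turned between libraries. At day 4 the order was Slc25a5 with 17.96% to 18.4%, Slc25a39 with 11.97% to 12.1%, Slc25a1 with 10.6% to 11.1%, Slc25a3 with 9.64% to 10.1% and Slc25a4 with 9.47% to 9.52%. In 3T3-L1 at day 0, Slc25a4 alone held 38.1% to 38.6%, followed by Slc25a5 with 13.8% to 14.1%. At day 6 Slc25a5 led with 34.9% to 35.2%, followed by Slc25a1 with 14.9% to 15.1%, Slc25a10 with 12.2% to 12.2% and Slc25a4 with 10.7% to 11.1%. Exon length here is that of all annotated exons joined, so these shares are approximate.

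**Figure D3:**
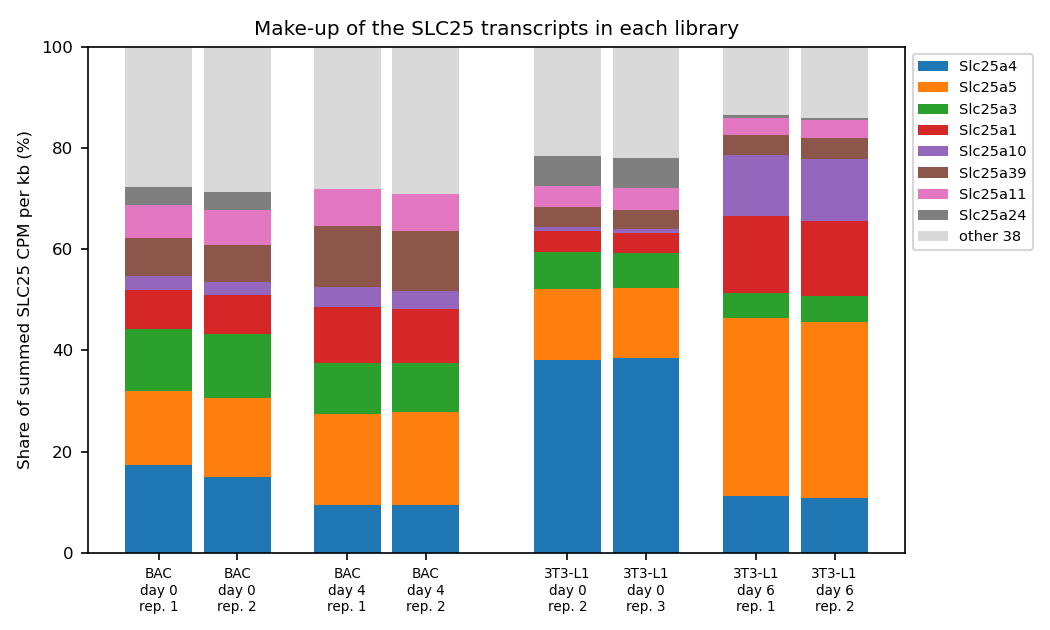
Share of summed SLC25 CPM per kilobase of exon (%) held by 8 carriers and by the other 38 of the 46 described in each of the 8 libraries. Slc25a4 takes 38.1% to 38.6% in 3T3-L1 at day 0, and Slc25a5 takes 34.9% to 35.2% at day 6.

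The third comparison asks whether a carrier changed by a different amount in the 2 lines. The change in BAC minus the change in 3T3-L1 was tested with all 8 libraries fitted together. This difference was above 0 for 21 of 38 carriers and below 0 for 9, with a median of 0.43. Of all 12863 genes in this fit, 25.3% were above 0 and 33.7% below, with a median of −0.11. Line, day of sampling and count table differ together and cannot be told apart in this contrast.

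The largest differences in favour of BAC were those of Slc25a23, at 3.92 ± 0.38 (adjusted p = 3.07e-09), Slc25a42, at 3.30 ± 0.13 (adjusted p = 8.82e-17), Slc25a37, at 2.36 ± 0.14 (adjusted p = 1.91e-13), and Slc25a27, at 2.004 ± 0.21 (adjusted p = 1.02e-08). For Slc25a23 the value without 3T3-L1 day 0 replicate 3 was 3.30. For Slc25a27 the line that passed was 3T3-L1, where it fell. Among the smaller ones, Slc25a33 was at 1.35 ± 0.23 (adjusted p = 1.66e-05) and Slc25a4 at 1.29 ± 0.11 (adjusted p = 1.37e-10). The carnitine exchanger Slc25a20 was at 0.93 ± 0.16 (adjusted p = 1.71e-05) and the oxoglutarate carrier Slc25a11 at 0.71 ± 0.094 (adjusted p = 4.99e-07). All 4 iron and glutathione carriers were above 0, from 0.47 ± 0.16 for Slc25a40 to 2.36 ± 0.14 for Slc25a37. The Slc25a40 call was lost without the low-count filter (adjusted p = 0.0579), without 3T3-L1 day 0 replicate 2 (adjusted p = 0.0867) and without 3T3-L1 day 6 replicate 1 (adjusted p = 0.134).

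The largest differences toward 3T3-L1 were those of Slc25a10, at −3.30 ± 0.13 (adjusted p = 7.3e-17), Slc25a25, at −3.03 ± 0.17 (adjusted p = 1.75e-13), Slc25a24, which fell further in BAC, at −2.30 ± 0.17 (adjusted p = 1.63e-11), and Slc25a45, at −1.91 ± 0.47 (adjusted p = 0.00113). The glutamate carrier Slc25a22 was at −1.40 ± 0.13 (adjusted p = 1.6e-09), the citrate carrier Slc25a1 at −1.16 ± 0.10 (adjusted p = 7.7e-10) and the translocase Slc25a5 at −0.82 ± 0.093 (adjusted p = 4.37e-08). Slc25a44, the branched-chain amino acid carrier, was at −0.72 ± 0.10 (adjusted p = 1.9e-06), that is, it rose more in 3T3-L1. In all, 2 of the 3 carboxylate carriers had values below 0 and 1 above. Slc25a34 did not pass, at 2.93 ± 1.57 (adjusted p = 0.112), and its value moved from −0.16 without 3T3-L1 day 0 replicate 2 to 5.99 (adjusted p = 0.0374) without BAC day 0 replicate 2. Without 3T3-L1 day 0 replicate 3 it was 3.85 (adjusted p = 0.0381).

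Smaller differences past the test were less secure. That of Slc25a12 (0.33 ± 0.14 (adjusted p = 0.0452)) was lost without BAC day 4 replicate 1, 3T3-L1 day 0 replicate 2, 3T3-L1 day 0 replicate 3, 3T3-L1 day 6 replicate 1 or 3T3-L1 day 6 replicate 2 (adjusted p from 0.0579 to 0.198), with DESeq2 (adjusted p = 0.0974) and without the low-count filter (adjusted p = 0.0713). That of Slc25a16 (0.39 ± 0.14 (adjusted p = 0.0175)) was lost without BAC day 4 replicate 2, 3T3-L1 day 0 replicate 3 or 3T3-L1 day 6 replicate 2 (adjusted p from 0.0789 to 0.123) and without the low-count filter (adjusted p = 0.0771). That of Slc25a15 (−0.500 ± 0.14 (adjusted p = 0.00377)) was lost without BAC day 0 replicate 1 or BAC day 0 replicate 2 (adjusted p from 0.0556 to 0.0882) and with DESeq2 (adjusted p = 0.0903). The call of Slc25a29 (0.80 ± 0.33 (adjusted p = 0.0385)) ended without BAC day 0 replicate 2, BAC day 4 replicate 1, 3T3-L1 day 0 replicate 3, 3T3-L1 day 6 replicate 1 or 3T3-L1 day 6 replicate 2 (adjusted p from 0.0505 to 0.193) and with DESeq2 (adjusted p = 0.169), and that of Slc25a30 (1.10 ± 0.35 (adjusted p = 0.00981)) without BAC day 4 replicate 2 or 3T3-L1 day 6 replicate 2 (adjusted p from 0.07 to 0.264). Slc25a3, Slc25a46, Slc25a32, Slc25a36, Slc25a51, Slc25a28, Slc25a39 and Slc25a35 passed with values from 0.43 ± 0.10 for Slc25a3 to 1.04 ± 0.27 for Slc25a35, and kept their calls under every alternative. The 8 carriers that did not pass were Slc25a13, Slc25a14, Slc25a17, Slc25a26, Slc25a34, Slc25a38, Slc25a47 and Slc25a53, of which Slc25a34 passed in the fits named before and Slc25a53 without 3T3-L1 day 6 replicate 2 (−0.88 (adjusted p = 0.0487)).

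**Figure D4:**
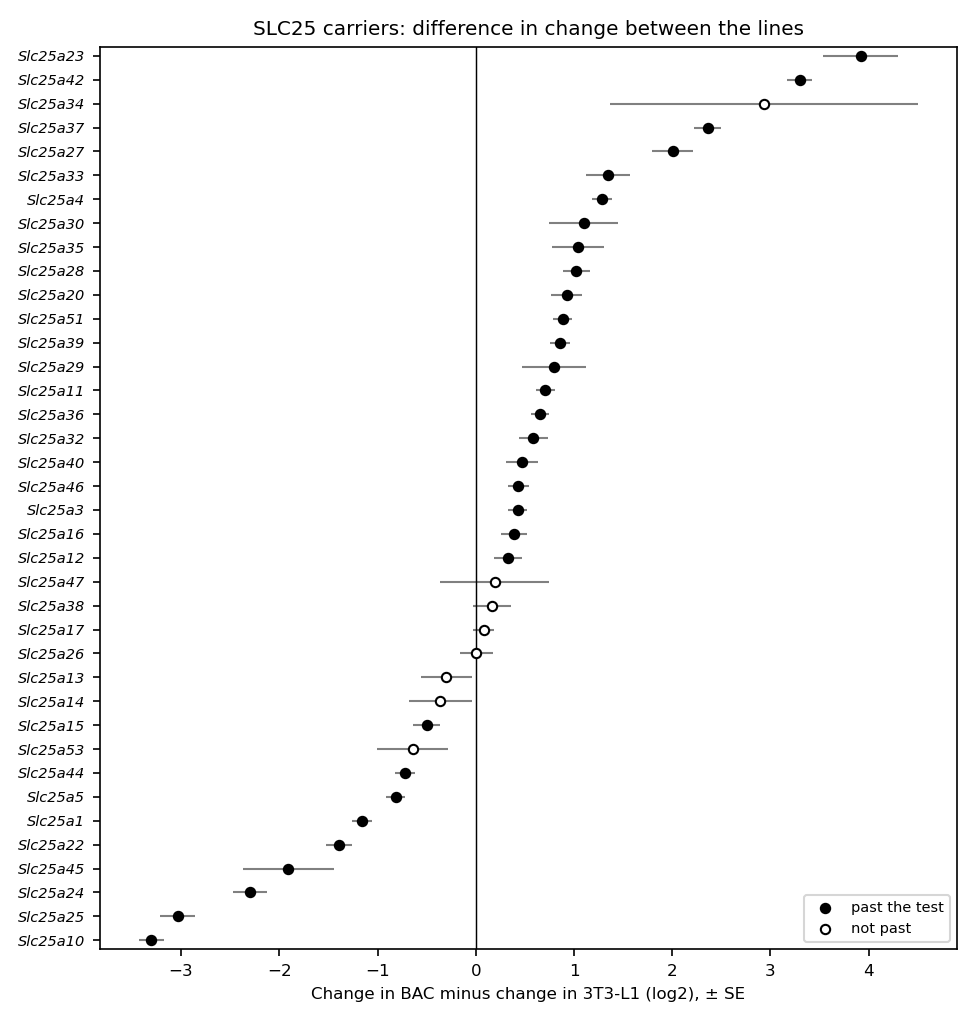
Change in BAC minus change in 3T3-L1 (log2) ± SE for the 38 described and tested carriers, in order of size. Filled points passed the test of the difference (21 above 0 and 9 below), and open points did not.

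Other mitochondrial transport genes were counted in the same way. Of 26 tested in each line, 17 were higher and 4 lower in BAC (median 1.23), where 39.1% of all genes were higher and 39.4% lower, and 17 were higher and 5 lower in 3T3-L1 (median 0.92), where 39.8% of all genes were higher and 39.6% lower. The pyruvate carrier subunits Mpc1 and Mpc2 rose by 3.35 ± 0.11 and 3.01 ± 0.087 in BAC and by 1.69 ± 0.073 and 2.66 ± 0.059 in 3T3-L1. All 3 outer membrane channels were higher, from 1.15 ± 0.074 for Vdac3 to 1.86 ± 0.077 for Vdac2 in BAC and from 0.36 ± 0.05 for Vdac2 to 1.01 ± 0.049 for Vdac1 in 3T3-L1. All 4 ABC transporters were higher in both lines, with Abcb6 at 2.502 ± 0.12 in BAC and 1.93 ± 0.12 in 3T3-L1. Sfxn3, a sideroflexin, fell in both (−3.61 ± 0.13 and −2.85 ± 0.072), as did Ccdc109b, a subunit that holds back the calcium uniporter (−2.89 ± 0.20 and −2.75 ± 0.51). Letm1, an ion exchanger of the inner membrane, rose in both (2.44 ± 0.084 and 2.28 ± 0.061). Of the enzymes that work beside the carriers, 23 of 30 tested were higher and 5 lower in BAC, and 19 of 31 were higher and 5 lower in 3T3-L1, against the same shares of all genes. These lists were chosen with earlier results known and are given as counts only.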

How the data were processed

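RNA was sequenced from poly(A)-selected libraries of BAC and 3T3-L1. For each line the authors deposited raw counts, whole numbers by gene symbol, neither normalised nor pooled. Alignment and counting are given as STAR with HTSeq in the methods of the study but as Bowtie2 with RSEM 1.3.1 on mm10 in the submitters' processing notes, which also list DESeq2 1.4.5. Strandedness was not given in the sources used here. Antisense, overlapping and closely similar genes could therefore not be told apart. For BAC, 27 of 35976 rows carry dates in place of gene names. They held at most 0.316% of a library's counts and were left out. Every column of per-sample values was used.

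Tests were two-sided and used the quasi-likelihood F-test of edgeR (version 4.0.16, R 4.3.3) after filterByExpr with a minimum count of 10 and TMM scaling. P-values were adjusted by Benjamini-Hochberg over all genes tested, with 0.05 as the threshold. Each line was fitted alone on 4 libraries, and the difference in change in 1 fit over 8. SEs derive from the test statistic, and the counting ratio of Slc25a34 has an exact 95% interval. CPM uses TMM factors, except in the marker sums. Gene positions and exon lengths are from GENCODE vM21 and promoter windows from RefSeq, both GRCm38. Alternatives were DESeq2 1.42.0, RLE, upper-quartile and library size scaling, no filter, each library left out, a replicate block and both lines in 1 fit.

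Of the 47 members, 1 is not reported here and was left out of the counts of carriers, medians and shares, but not of the fits over all genes. Members, lists and motifs were chosen with earlier results of these data known. Values of each library are given for 9 carriers of central role, for the 6 largest rises and falls past the test in each line and a mean log2 CPM no lower than 2, and for carriers called in opposite directions. Other carriers are given by their log2 change. Of each list of enzymes or transporters, at most the 3 largest changes past the test in each direction are named per line. The value of the same gene in the other line is given beside them. Acly is named besides, for the smallest change of its list in BAC.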

Additional observations from a re-analysis of the deposited data

Results flagged for a closer look

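For 30 of 38 carriers the change with differentiation differed between BAC and 3T3-L1 by the test of the difference itself (edgeR's quasi-likelihood test, adjusted p under 0.05). Values here are the log2 change in BAC minus that in 3T3-L1. The carriers called in opposite directions in the lines differed by 2.36 for Slc25a37, 1.29 for Slc25a4 and 0.65 for Slc25a36. The other values above 0 were 3.92 for Slc25a23, 3.30 for Slc25a42, 2.004 for Slc25a27, 1.35 for Slc25a33, 1.10 for Slc25a30, 1.04 for Slc25a35 and 1.02 for Slc25a28. They went on with 0.93 for Slc25a20, 0.89 for Slc25a51, 0.85 for Slc25a39, 0.80 for Slc25a29, 0.71 for Slc25a11 and 0.59 for Slc25a32, and ended with 0.47 for Slc25a40, 0.43 for Slc25a46, 0.43 for Slc25a3, 0.39 for Slc25a16 and 0.33 for Slc25a12. Below 0, the values were −3.30 for Slc25a10, −3.03 for Slc25a25, −2.30 for Slc25a24, −1.91 for Slc25a45, −1.40 for Slc25a22, −1.16 for Slc25a1, −0.82 for Slc25a5, −0.72 for Slc25a44 and −0.500 for Slc25a15. Of all genes in this fit 25.3% were above 0 and 33.7% below. The lines differ at the same time in the day of the second sampling and in the table that holds them, and these cannot be told apart.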

How the results depend on the processing

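The counts of carriers called stayed within 1.5 times the main count under every alternative (RLE, upper-quartile or library size scaling, no low-count filter, DESeq2, each library left out, and both lines in 1 fit). Leaving out each library in turn gave 27 to 30 higher (27 to 28 of them among the 28 called with all libraries, the others being Slc25a2 and Slc25a18, which passed the low-count filter in those fits but not with all libraries) and 4 to 6 lower in BAC, 22 to 23 higher and 8 lower in 3T3-L1, and 17 to 21 above and 8 to 10 below 0 for the difference. Direction and call were the same under every alternative for 31 of 38 carriers in BAC, 30 in 3T3-L1 and 27 for the difference. Scaling by library size alone moved the median log2 change of all genes by −0.26 in BAC and −0.29 in 3T3-L1, and upper-quartile scaling moved it by −0.16 in 3T3-L1 and 0.12 for the difference.

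Some values turned in sign, and apart from the shift of the scaling the cause was not tested. With library size alone the log2 change was −0.21 for Slc25a25 in BAC and, in 3T3-L1, −0.11 for Slc25a29, −0.24 for Slc25a32, −0.0025 for Slc25a38, −0.029 for Slc25a42, −0.23 for Slc25a47 and −0.019 for Slc25a53. Upper-quartile scaling gave −0.11 for Slc25a32 and −0.10 for Slc25a47 in 3T3-L1. With 1 library left out at a time, the log2 change ran from −0.035 to 0.10 for Slc25a25 in BAC. In 3T3-L1 it ran from −0.015 to 0.40 for Slc25a29, from −0.013 to 0.11 for Slc25a32, from −0.86 to 0.62 for Slc25a47 and from −0.010 to 0.51 for Slc25a53. The difference in change ran from −0.42 to 0.061 for Slc25a13, from −0.033 to 0.22 for Slc25a26, from −0.16 to 5.99 for Slc25a34 and from −0.36 to 1.11 for Slc25a47. With the replicate number as a block, BAC gave 28 higher and 6 lower, as without it. Between libraries with the same number, the deviations from the group mean had a correlation of 0.026 over 14028 genes. With 2 libraries per group, the second pair mirrors the first and adds nothing to this value. The labels do not say that a number marks a shared batch. The 3T3-L1 groups share only number 2, so no block could be fitted there. Depth limits the 8 untested carriers and Slc25a34 at day 0, where counts were 0 to 2 per library.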
